A study of Drosophila melanogaster with 2 samples.

Results

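Occupied sites inside introns and near, but not at, a transcription start made up 1669 of the 6496 reproducible peaks of the Drosophila factor Oli, or 25.7%. A peak belonged here when its summit lay in an intron of a protein-coding gene and in no annotated exon. The summit also had to lie more than 500 and at most 5000 bp from the nearest start of a protein-coding transcript, written 500 to 5000 bp below. Peaks inside a long non-coding RNA gene, or within 500 bp of the start of one, were left out. Of 3426 intronic summits, 629 lay within 500 bp of a coding start, 1081 lay over 5000 bp away and 1716 lay between these limits. Of these 1716, 47 were dropped for a long non-coding RNA gene. Among the reproducible peaks, the position of the summit alone chose these, and no further measure of strength or sequence entered.

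The data are ChIP-seq (immunoprecipitated chromatin, sequenced) from whole Drosophila melanogaster embryos of mixed sex, 6 to 18 hours old. They came from a transgenic line in which Oli carries enhanced GFP at its C terminus, and the GFP was what the antibody recognised. There was 1 group with 2 biological replicates and no second genotype, treatment or age, so every comparison below is between places in the genome or between the replicates. Material from whole embryos mixes all cell types, so a peak does not say in which cells the site was bound. Each replicate had a list of 30000 peaks, the pooled replicates had another list of that length, and 6496 pooled peaks passed the threshold of the irreproducible discovery rate (IDR). Read numbers were not among the material analysed, and the depth is therefore unknown.

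Oli is an Olig-type transcription factor of the basic helix-loop-helix (bHLH) class, whose members bind as dimers to E-boxes, short sites spelled CANNTG. In flies the gene is known for a role in motor neurons, and its vertebrate relatives act in motor neuron and oligodendrocyte development. Introns near the 5′ end of fly genes often hold enhancers and alternative promoters, which is why summits close to a start and yet outside the promoter form a class of interest.

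The sequences below are shown because they lie under the strongest sites, and because they let the base composition and the few motifs described further on be seen directly. Each runs from 50 bp left of the summit to 50 bp right of it on the plus strand of dm6 (release 6 of the genome). The first 5 are the strongest sites on 2L, 3L, 3R and X. Of the sites on 2L, 3L, 3R and X, ImpL2 is the strongest that holds the E-box CATATG, and Reph the strongest that holds the E-box CAGCTG. Capitals mark an E-box or a GATA site, spelled NGATAN with A or T at the first N and A or G at the last, on either strand.
ush, chr2L:481024-481124: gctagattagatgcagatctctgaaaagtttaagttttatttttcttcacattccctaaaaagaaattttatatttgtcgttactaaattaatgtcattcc
CG11050, chr2L:6612659-6612759: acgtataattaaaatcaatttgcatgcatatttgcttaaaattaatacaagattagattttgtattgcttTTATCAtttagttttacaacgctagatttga
Trl, chr3L:14759469-14759569: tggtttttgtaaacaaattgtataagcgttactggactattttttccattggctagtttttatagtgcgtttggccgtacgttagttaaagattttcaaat
Lk6, chr3R:11761005-11761105: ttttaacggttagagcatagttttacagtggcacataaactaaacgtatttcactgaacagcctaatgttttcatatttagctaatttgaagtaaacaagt
CG32772, chrX:4910320-4910420: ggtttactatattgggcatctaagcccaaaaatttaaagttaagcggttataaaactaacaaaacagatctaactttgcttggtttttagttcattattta
ImpL2, chr3L:4228335-4228435: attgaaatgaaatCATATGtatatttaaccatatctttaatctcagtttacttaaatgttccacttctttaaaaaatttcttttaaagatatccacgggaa
Reph, chr2L:3804712-3804812: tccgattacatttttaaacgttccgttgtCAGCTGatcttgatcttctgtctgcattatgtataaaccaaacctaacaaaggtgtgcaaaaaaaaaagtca

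None of the 5 strongest of these windows held an E-box, and 1 held a GATA site. All 5 were rich in A and T. The ush window had 26.7% GC, against 60.4% in the window of the same width centred 500 bp to its right. CG11050 had 22.8% at the summit and 66.3% in that flank. The windows of Trl, Lk6 and CG32772 had 31.7%, 30.7% and 28.7% GC, against 48.5%, 43.6% and 53.5% in their flanks.

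The strongest intronic site near a start lay in the first intron of ush, which encodes a zinc-finger partner of the GATA factor Pannier. Its interval was chr2L:480882-481298. The signal is the height of a peak as the authors' caller gave it. In ush it was 2963 for replicate 1 and 2756 for replicate 2, and the pooled signal of 5703 ranked 2nd of the 6496 peaks. The nearest coding start was not that of ush. It was the start of cbt, the gene of the zinc-finger factor Cabut, 1386 bp away. The site in CG11050 (chr2L:6612496-6612913) had a signal of 2551 in replicate 1 and 2539 in replicate 2, and sat in a second intron of only 140 bp. Among the 12 strongest sites it was the 1 whose interval touched an exon.

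Trl, which encodes the chromatin protein GAGA factor, held the next site, in its second intron at chr3L:14759291-14759742. Signals there were 2595 in replicate 1 and 2035 in replicate 2. HmgZ, the gene of a high-mobility-group chromosomal protein, had 2659 in replicate 1 and 1681 in replicate 2 at its site 621 bp upstream of an internal start. Of the 12 strongest sites, this one differed most between the replicates in absolute signal. Lk6 encodes a kinase that acts on the translation factor eIF4E, and its site had 1816 in replicate 1 and 2026 in replicate 2. CG32772 had 1936 and 1918 in replicates 1 and 2.

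The other 6 of the 12 strongest included sites in Tlk (a Tousled-like kinase), CG12769, CG9663, chif (the Dbf4-like regulator of DNA replication) and CG9837. Their pooled signals ran from 2594 in CG9837 to 2985 in Tlk. Both replicates placed Tlk high, at rank 47 in replicate 1 and 38 in replicate 2. Of the 12, 10 lay in a first intron and 11 had less GC at the summit than in the flank. The exception on GC was CG9837, with 26.7% at the summit and 19.8% in the flank. The nearest start was an internal start of the host gene for 8 of the 12, its outermost start for 3, and the start of another gene for ush.

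The sites recurred in both replicates. Of the 1669 sites, 1665 (99.8%) overlapped a peak in each replicate list by at least 1 bp, and 1600 (95.9%) did so over at least 50% of their length. The replicate lists are long, and a stricter comparison used the strongest 6496 peaks of each. Of the intronic sites near a start, 1407 (84.3%) overlapped such a peak in both replicates. The share was 79.8% for intronic peaks over 5000 bp from a start, 78.2% for intergenic peaks 500 to 5000 bp from one and 84.7% for peaks within 500 bp of a start. For 1579 sites a summit lay within 100 bp in both replicates. Over these sites the 2 replicate signals had a Spearman rho of 0.799 and a Pearson r of 0.837 on the log2 scale. This describes agreement over sites that passed a threshold on reproducibility, and the control was shared by both lists.

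**Figure D1:**
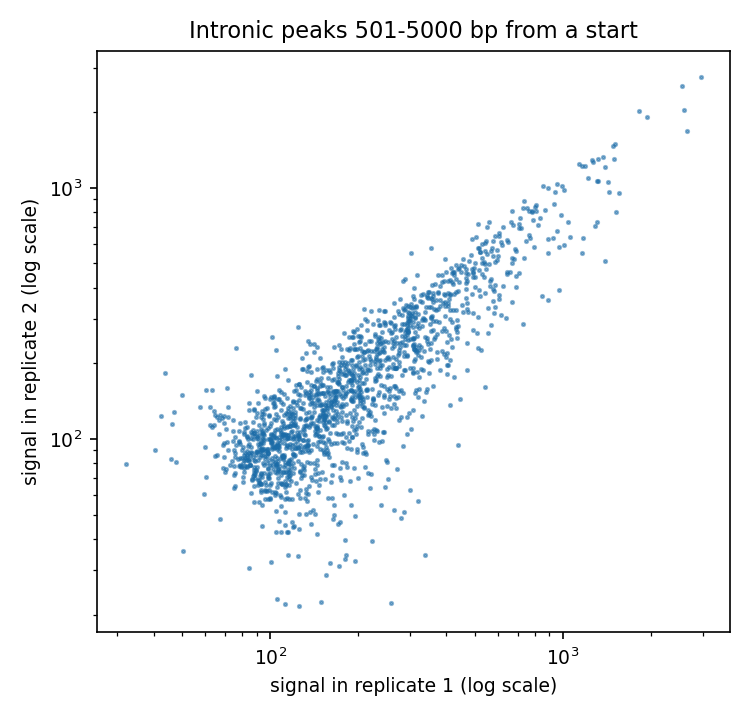
Signal of each intronic site near a start in replicate 1 (x axis, log scale) and replicate 2 (y axis, log scale), 1 point per site for the 1579 sites with a summit within 100 bp in both. The points follow 1 band (Spearman rho 0.799), and ush stands at the upper end with 2963 and 2756.

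Intronic sequence near a start held more peaks than comparable sequence elsewhere. Per Mb of eligible sequence, meaning all bases where a summit would obey the same rule of place, there were 80.2 peaks (95% exact Poisson interval 76.4 to 84.2) over 20.8 Mb. Deep introns, over 5000 bp from any coding start, held 38.5 per Mb (36.2 to 40.9, 1032 peaks). The ratio was 2.08, with an adjusted p of 4.18e-79 by the exact conditional test of 2 rates, two-sided. Intergenic sequence at the same 500 to 5000 bp from a start held 51.5 per Mb (47.5 to 55.8, 616 peaks), a ratio of 1.56 with an adjusted p of 3.66e-22 by that exact test. Sequence within 500 bp of a start held 140.0 per Mb. Both ratios were over 1 in every alternative, and these p-values are over peaks of these 2 libraries, not over embryos or flies.

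The rate fell with distance from the start and then levelled off. It was 108.3 peaks per Mb at 500 to 1000 bp, 90.4 at 1000 to 2000 bp, 68.7 at 2000 to 3000 bp, 63.4 at 3000 to 4000 bp and 61.6 at 4000 to 5000 bp, each bin without its lower bound. The nearest bin was 1.76 times the farthest (p = 8.11e-11, exact conditional test, two-sided). In intergenic sequence the rates over the same bins were 65.4, 56.9, 41.3, 44.4 and 51.05 per Mb. The 95% intervals of the intronic and intergenic rates did not overlap in the first 4 bins, and they overlapped at 4000 to 5000 bp. At the inner limit of the rule, 93 sites lay over 500 to 600 bp from a start and 116 intronic summits lay just outside it, over 400 to 500 bp away. At the outer limit, 20 sites lay in the last 100 bp, and 21 deep intronic peaks lay in the 100 bp beyond it.

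First introns carried most of the sites. They held 1278 of the 1669 (76.6%), at 103.9 per Mb (98.3 to 109.8), against 391 sites at 46.0 per Mb (41.6 to 50.8) in later introns. The ratio was 2.26 (p = 8.85e-51, exact conditional test of 2 rates, two-sided). It also held within each distance bin, at 2.12, 2.51, 2.15, 2.30 and 1.47 from the nearest bin to the farthest. An intronic base counted as first-intron where it lay in the first intron of any coding transcript of the gene, so genes with many alternative starts had more of it.

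**Figure D2:**
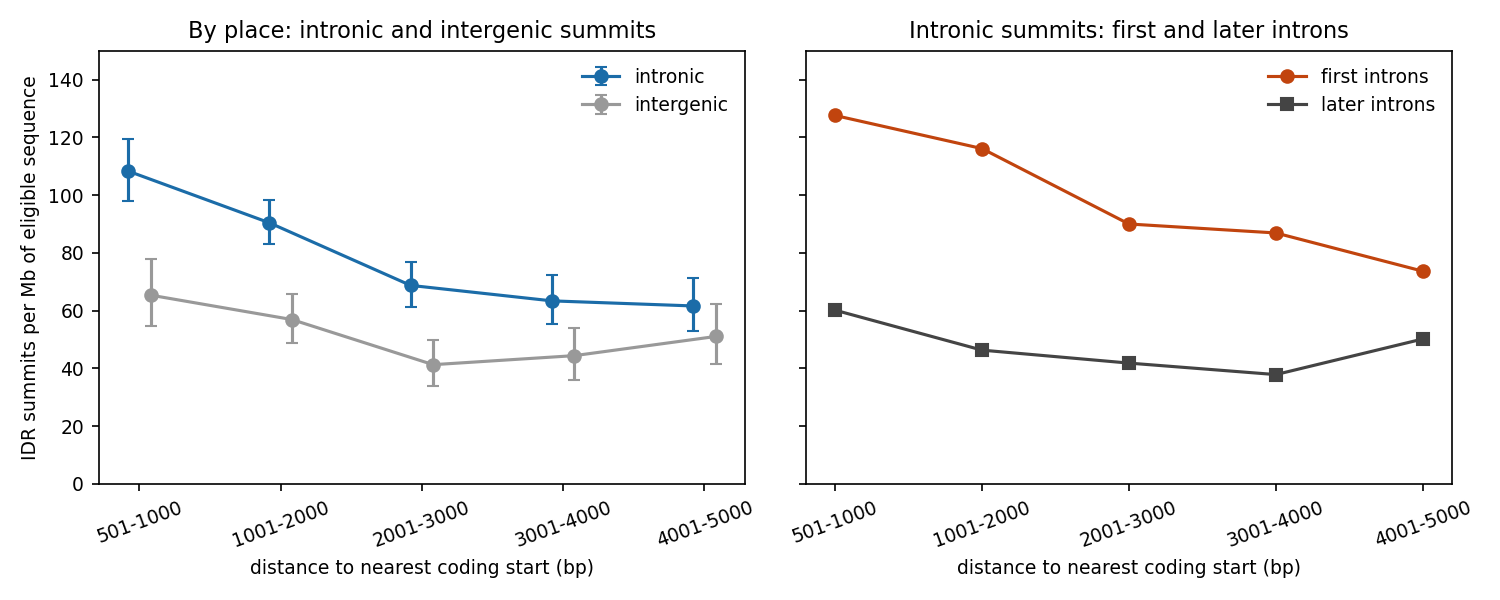
Peaks per Mb of eligible sequence (y axis) by distance of the summit from the nearest coding start in bp (x axis), with exact Poisson 95% intervals on the left. Left, intronic sites go from 108.3 to 61.6 per Mb with distance and lie above intergenic ones; right, first introns lie above later introns in all 5 bins.

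The rates on the 2 sides of the start were close. Upstream of the nearest start, within the intron of a longer transcript or of another gene, there were 561 sites at 85.5 per Mb (78.6 to 92.9). Downstream there were 1108 at 77.8 per Mb (73.3 to 82.6). The ratio was 1.10 and did not pass the test (p = 0.0733, exact conditional test, two-sided). It passed with either replicate's own list, at 1.14 in replicate 2 and 1.11 in replicate 1, and with the list of 12992 pooled peaks.

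The nearest start was most often an alternative start inside the host gene, for 888 sites (53.2%). Of eligible sequence, sampled at every 2000th base, 42.7% had such a start nearest. It was the host's outermost start for 579 sites (34.7%), against 33.1% of eligible sequence, and the start of another gene for 202 (12.1%), against 24.2%. The introns were long, with a median of 7038 bp. Introns over 5000 bp held 1030 sites, those of 1000 to 5000 bp held 561 and those under 1000 bp held 78. Summits lay at a median of 31.9% of the intron's length from its 5′ end, and the sampled eligible bases at 38.0%; the rule itself keeps to sequence near starts. The median distance from the nearest exon was 954 bp. Only 149 summits (8.93%) were within 200 bp of an exon, and 125 intervals (7.49%) touched one. The median distance to the start was 1744 bp, with quartiles of 1012 and 2954 bp.

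Sites were denser where the nearest start was itself occupied. A start counted as occupied when an IDR summit lay within 500 bp of it, as was the case for 3294 of 19252 coding starts. Around occupied starts there were 139.8 intronic sites per Mb (126.7 to 153.9, 416 sites), against 70.3 (66.5 to 74.3, 1253 sites) around the others, a ratio of 1.99. The same ratio was 2.07 in deep introns and 2.54 in intergenic sequence, so it was not confined to introns near a start. By chromosome the rate ran from 72.5 per Mb on 2L and 75.9 on 3R to 77.5 on 2R, 84.4 on 3L and 94.5 on X. The X interval (85.3 to 104.4) did not overlap that of 2L or 3R. These intervals, like those of the other rates, treat sites as independent, but sites cluster within genes. On X, Tlk held 12 sites, CHES-1-like 11 and kirre 9. Chromosome 4 had 0 sites in 0.192 Mb, which allows a rate of up to 19.2 per Mb (upper 95% limit).

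The sites were of middling strength. Of the 1669, 865 (51.8%) were in the stronger 50% of the IDR list by signal, against 413 of 1032 (40.02%) in deep introns and 267 of 616 (43.3%) in intergenic sequence 500 to 5000 bp from a start. The differences of 11.8 and 8.48 percentage points passed the two-sided Fisher exact test, with adjusted p of 7.75e-09 and 3.38e-04. Peaks within 500 bp of a start were stronger, at 58.8%, and the difference of −6.93 points passed too (adjusted p = 2.92e-05, Fisher exact test). The median signal was 302.1 for the intronic sites near a start, 258.4 in deep introns, 274.5 in intergenic sequence and 353.3 near starts. Within the stronger 50% alone, the difference from intergenic peaks was 3.96 points and did not pass (adjusted p = 0.263, Fisher exact test).

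A larger part of the pooled peaks of this class passed the IDR threshold. The share was 24.1% (1669 of 6936 pooled peaks), against 16.99% in deep introns (adjusted p = 3.34e-23) and 18.2% in intergenic sequence (adjusted p = 8.83e-12), by two-sided Fisher exact tests. It was 34.3% within 500 bp of a start (adjusted p = 5.68e-38, Fisher exact test). Over all 30000 pooled peaks, 21.7% passed. The class was thus above all pooled peaks and below the peaks at starts.

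The summits lay in short troughs of GC content. Within 50 bp of the summit the sites had 30.6 ± 7.39% GC, against 42.4 ± 9.19% in the window 500 bp to the right (SD, n = 1669 each). The summit was the lower of the pair at 1401 sites (83.9%), and the difference of −11.8 points passed the two-sided exact sign test (p = 3.05e-198). All eligible sequence had 39.1% GC. The summit means of the other classes were 30.5% in deep introns, 30.5% in intergenic sequence and 31.1% within 500 bp of a start, so the trough was shared by all. Across the sites, signal had a Spearman rho of −0.138 with summit GC and −0.0890 with distance from the start (n = 1669, sites of the same 2 libraries); both relations were weak.

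Counted on both strands, 2 of 17 motifs stood higher at the summit, within 50 bp to each side, than in the flank (11.8% of those tested), and 7 stood lower (41.2%). The GATA site was present at 26.1% of summits and 17.9% of flanks, a ratio of 1.46 (adjusted p = 7.73e-08, exact McNemar test). It was found at 24.8% of all IDR summits. The Mef2-like motif TANNNATA, with A or T at each N, was at 21.7% of summits and 9.53% of flanks, a ratio of 2.28 (adjusted p = 4.88e-21, exact McNemar test), and at 23.1% of all IDR summits. Mef2 is a muscle transcription factor and GATA factors act in gut, blood and heart, but a match is only a string of letters. Both motifs consist mostly of A and T, as do the summit windows, and the part of base composition in these ratios was not tested.

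E-boxes were not more frequent at the summits. None of the 10 E-box classes was called higher than in the flank. Of 5 classes called lower, CAACTG had a summit over flank ratio of 0.696, while CACATG had one of 0.581. For CACCTG the ratio was 0.521 (0.276 with the list of replicate 2 alone), for CAGATG it came to 0.451 and for CAGCTG to 0.539. Under some alternatives given further down, all but CAGCTG lost the call with the ratio still under 1. CAGCTG was at 2.46% of summits, 4.55% of flanks and 2.28% of all IDR summits. CATATG, an E-box that fly bHLH factors such as Twist are known to bind, was at 4.43% of summits and 4.19% of flanks (ratio 1.06, adjusted p = 0.870, exact McNemar test) and at 4.002% of all IDR summits. The other 2 motifs called lower were short repeats. Of these GAGAG, the core of the GAGA factor site, was at 8.63% of summits, 16.8% of flanks and 8.10% of all IDR summits. The repeat CACACA was at 5.39% of summits, 11.5% of flanks and 5.02% of all IDR summits. The 7 lower motifs all hold more G and C than the 2 higher ones, and the flanks hold more G and C than the summits. The part of base composition in the E-box and repeat ratios was not tested either.

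Set beside the other classes, the summits of intronic sites near a start had much the same motifs. No motif of the 17 differed from deep introns (0.0% called) or from intergenic sequence (0.0%) after adjustment over 51 Fisher exact tests. At an unadjusted p under 0.05, CAGTG (17.3% of sites, 14.3% of deep peaks) and the E-box CAGATG differed from deep introns, and no motif from intergenic sequence. Against peaks within 500 bp of a start, 1 motif differed (5.88% called). This was TATCGATA, the DNA replication-related element known from core promoters, at 1 of 1669 intronic sites and 32 of 2146 peaks at starts (adjusted p = 7.83e-06, Fisher exact test). It was at 0.662% of all IDR summits. Of all strings of 6 letters, counted with their complements, 0 differed between the intronic sites and deep introns by the Fisher exact test (0.0% called), and 81 had an unadjusted p under 0.05.

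CAGTG, a string that is no E-box and lies inside none of the E-box classes, was within 50 bp of 17.3% of summits and in 17.7% of flank windows (16.0% of all IDR summits), and was denser beside the summit. The summit over flank ratio of 0.980 was not called, but with the list of replicate 1 alone it was 1.23 and was called higher (adjusted p = 0.0117, exact McNemar test). Its density was 1.86 sites per kb at 0 to 40 bp from the summit, 4.199 at 41 to 100 bp, 3.03 beyond that to 200 bp and 2.09 from there to 300 bp. The ring at 41 to 100 bp was chosen after this was seen. Its density was 3.70 per kb in replicate 1 and 4.32 in replicate 2, around each replicate's own strongest 6496 summits. CAGTG was in the ring at 636 of the 1669 sites (38.1%), against 21.3% in an outer band of the same width, over 200 to 260 bp away. Deep introns had 42.7% in the ring and 21.2% in the outer band, intergenic sequence 39.9% and 19.8%, and starts 31.7% and 22.9%. At starts the density was 3.27 per kb at 41 to 100 bp and 3.17 beyond that to 200 bp, close to each other.

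Hexamers of any spelling, with or without CAGTG, were also compared between the ring and the outer band. Of all hexamers, 398 (19.1%) were more frequent in the ring than in the outer band and 673 (32.4%) were less frequent (exact McNemar tests, adjusted p under 0.05). Mean GC was 34.8% in the ring and 44.3% in the outer band, and of the 20 more frequent hexamers with the lowest p, 17 were made of A and T alone. Among the others was AGTGTA, with 2 letters G or C, at 14.4% of sites in the ring and 3.71% in the outer band, a ratio of 3.89. Among hexamers with at least 3 letters G or C, a limit set after the data were seen, ACAGTG had the lowest p, at 16.2% of sites in the ring and 5.87% in the outer band. ACACTG followed, at 12.0% and 4.01%. ACAGTG was first by the same rule in replicate 1 (14.1% and 6.78%) and in replicate 2 (16.6% and 5.19%). Read along its strand, CAGTG pointed toward the summit in 47.8% of ring sites, against 37.9% in deep introns, 32.8% in intergenic sequence and 49.3% at starts.

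The next sequence carries CAGTG on each side of the summit, and it is shown to make the spacing visible. It is the strongest of 108 such sites, out of 1362 on 2L, 3L, 3R and X that both replicates held, and it runs 105 bp to both sides of its summit on the plus strand of dm6. Capitals mark CAGTG or its complement CACTG.
CG11050, chr2L:6612604-6612814: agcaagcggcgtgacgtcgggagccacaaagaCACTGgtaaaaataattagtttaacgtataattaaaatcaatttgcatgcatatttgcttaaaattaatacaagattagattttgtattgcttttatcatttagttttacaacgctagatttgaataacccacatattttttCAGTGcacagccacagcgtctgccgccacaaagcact

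In CG11050 the marked strings were centred 71 bp to the left and 71 bp to the right of the summit, with the stretch of A and T between them. That stretch is the intron, chr2L:6612641-6612780. The left string ends on the last base of the exon before it, and the right one spans the right end of the intron. Both strings thus sit at splice junctions, and their spacing here is that of the 2 ends of this short intron. What the strings and their spacing owe to splicing was not tested.

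**Figure D3:**
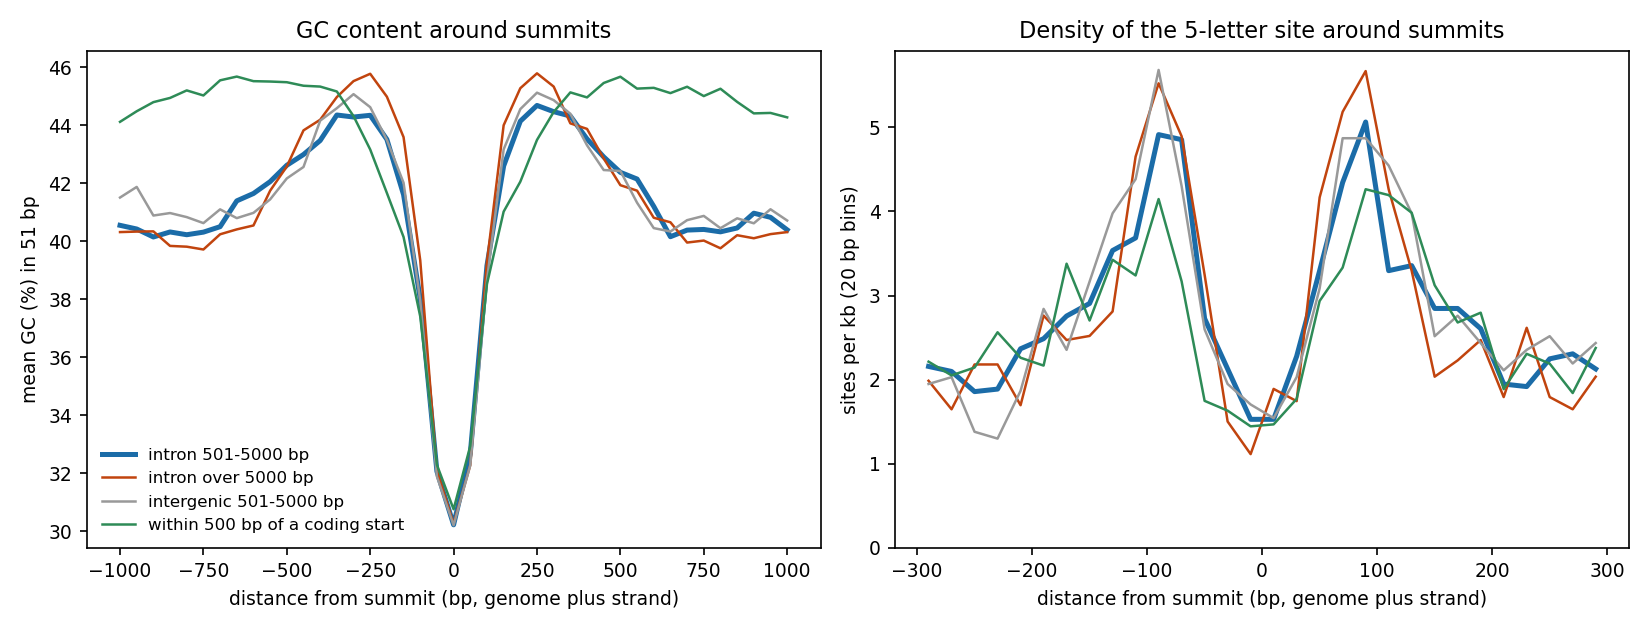
Mean GC in 51 bp windows (left, %) and density of the 5-letter site treated beside it (right, sites per kb in 20 bp bins) by distance from the summit in bp, 1 line per class of place. GC is lowest at the summit in all classes (30.2% in the window at the summit for intronic sites 500 to 5000 bp from a start). By distance band, the site is densest at 41 to 100 bp from the summit in all classes, but by little within 500 bp of a start. There the density is 3.27 per kb at 41 to 100 bp and 3.17 beyond that to 200 bp.

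The strongest 25% of the sites differed from the rest in some of these traits. Its 418 sites had signals from 525.7 to 5703. CATATG was within 50 bp of 7.18% of its summits (exact binomial 95% interval 4.89 to 10.1), against 3.52% (2.57 to 4.69) of the other 1251. The flank shares were 4.07% and 4.24%. By each replicate's own ranking the shares were 6.12% (4.03 to 8.84) and 2.99% (2.12 to 4.08) in replicate 1. In replicate 2 they were 5.61% (3.59 to 8.30) and 3.58% (2.61 to 4.78), and the intervals overlapped in both replicates. The flank share of the strongest 25% was 4.47% in replicate 1 and 4.88% in replicate 2. In the IDR list the summit shares were 3.88% and 3.75% in deep introns, 5.84% and 4.76% in intergenic sequence, and 3.72% and 3.42% at starts. The CATATG split was chosen after the values were seen and is given with no test. First introns held 83.3% of the strongest 25% and 73.6% to 74.8% of each further 25%. The median distance from the start was 1460 bp in the strongest 25% and 1783 bp or more in the others. Mean summit GC was 29.3% in the strongest 25%, 29.9% and 31.3% in the next 2 groups and 31.9% in the weakest.

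The 1669 sites lay in 979 genes, which is 10.7% of the 9136 coding genes with eligible sequence. A single site was found in 626 of these genes, 2 in 201, 3 in 73, 4 in 31 and 5 or more in 48. Genes with at least 2 sites held 62.5% of all sites. Hosting followed length. Of genes with at most 1000 bp of eligible sequence 0.766% hosted a site, and of those with over 16000 bp 61.4% did. Neighbouring sites in a gene were a median of 2044 bp apart over 690 pairs, the closest 199 bp apart, and 66 pairs were under 500 bp apart. Such close pairs can share fragments, since chromatin was sheared to 200 to 800 bp.

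The gene with the most sites was shn, which encodes Schnurri, a zinc-finger cofactor of Dpp signalling. Its 15 sites had pooled signals from 196.3 to 1239, and stood 17.3 to 48.1 kb from its outermost start, among 5 coding starts. Tlk had 12 sites, with signals from 169.3 to 2985. CHES-1-like, a forkhead factor, had 11 sites in 14.2 kb of eligible sequence, or 775.0 per Mb, the densest of the 8 genes with most sites. The strongest of these had 891.5 in replicate 1 and 1001.4 in replicate 2. The chromatin gene tou, CG32264, the adhesion gene kirre and SNF4Agamma, a subunit of AMP-activated kinase, had 9 sites each, and ush had 8. Some of these sites were close pairs, and each pair counts as 2 sites in the numbers and rates of these genes. In shn such pairs stood at 17.252 and 17.455 kb, 35.802 and 36.004 kb, and 37.987 and 38.188 kb from the outermost start. SNF4Agamma had pairs at 46.386 and 46.585 kb and at 65.461 and 65.694 kb, and tou had 1 at 1.071 and 1.271 kb.

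These genes differed in how strong their sites were. The 9 sites of SNF4Agamma ran from 165.6 to 310.7, and the ush sites ran from 281.6 to 5703 with a median of 452.1. In kirre, a gene of cell recognition in muscle formation, 1 site reached 1241 (690.4 in replicate 1 and 562.1 in replicate 2) and the median was 211.7. Its 9 sites were spread over 98.2 kb of eligible sequence, at 91.6 per Mb. For shn the rate was 435.9 per Mb, for Tlk 381.2 and for ush 389.1.

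**Figure D4:**
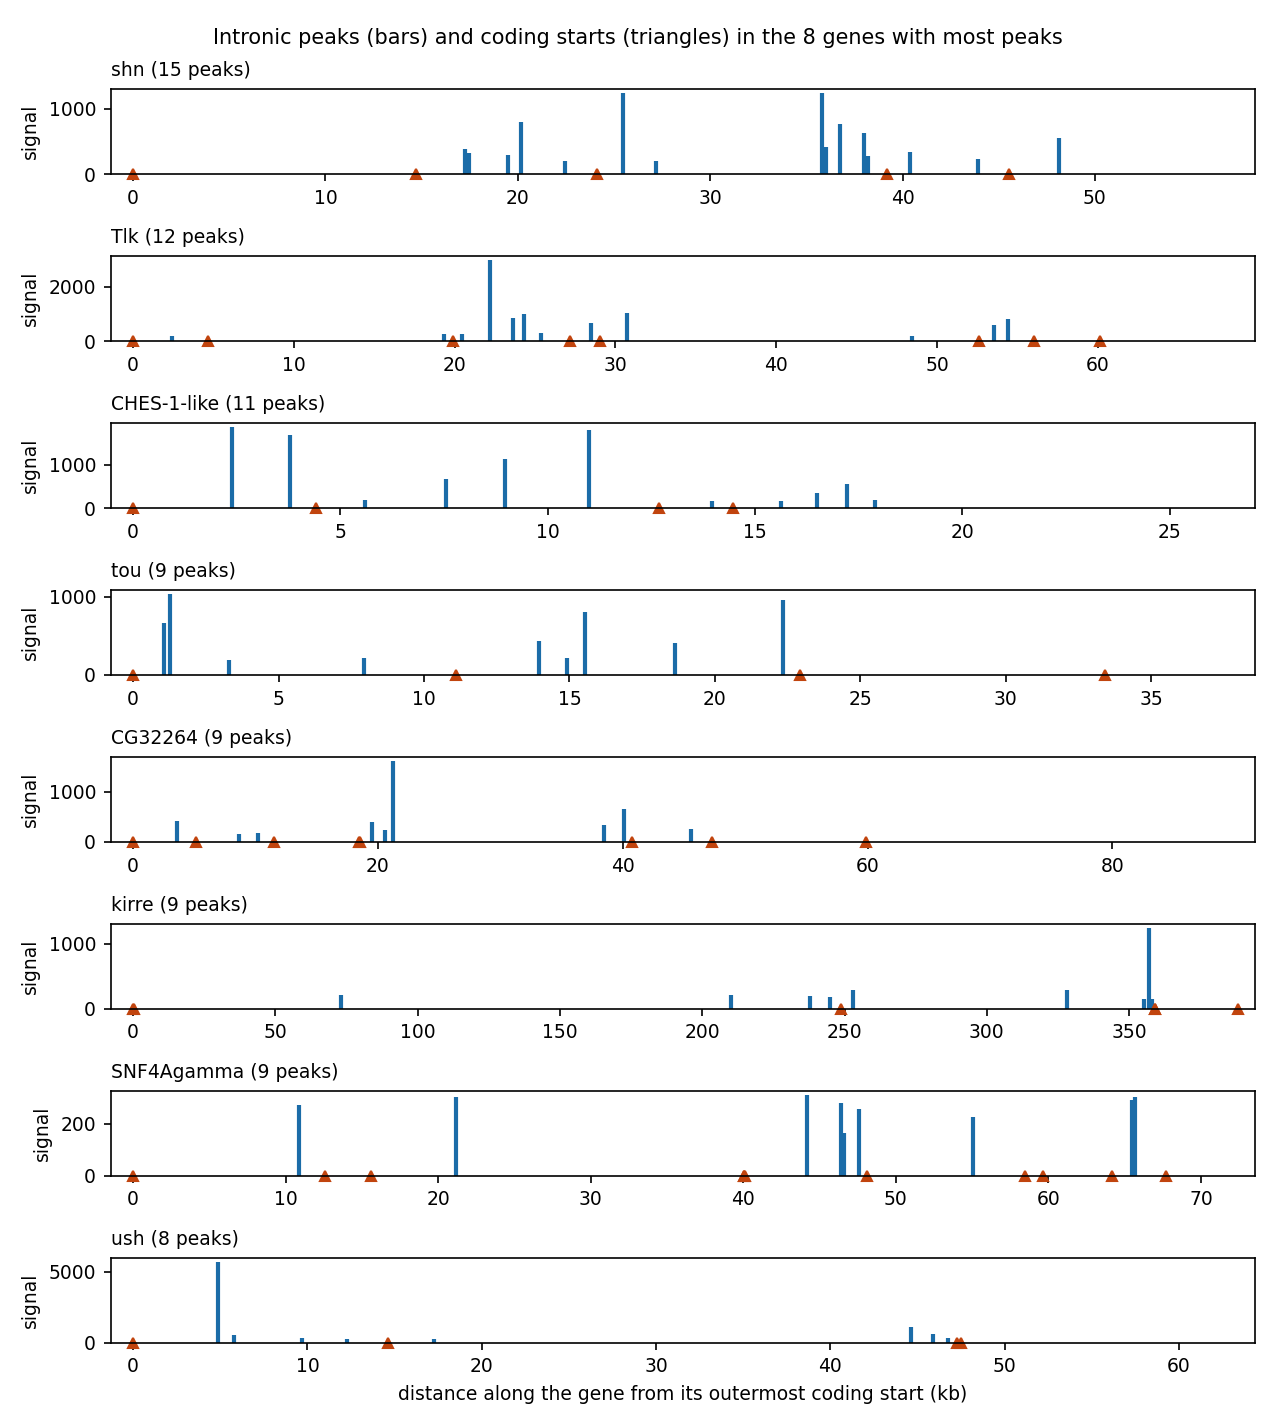
Intronic sites near a start (bars, height is the pooled signal on the y axis) and coding starts (triangles) along the 8 genes with most sites, by distance from the outermost coding start in kb (x axis). In shn the 15 bars stand among the internal starts, 17.3 to 48.1 kb from the outermost start, while the SNF4Agamma bars reach at most 310.7.

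Lists of genes with known roles were counted by how many of their members hosted a site, beside the 76.0 sites per Mb and 10.7% of hosting genes over all coding genes. These are counts with no test. Listed genes had more eligible sequence than most, with a median of 0.452 kb over all genes and 0.938 to 9.79 kb in the lists, so each list is given with its rate per Mb. The rate was above that of all genes, with intervals that did not overlap, in 2 lists. Polycomb, trithorax and GAGA factor genes had 6 hosting genes of 28 and 272 sites per Mb (161 to 430). Notch and EGF receptor signalling had 15 of 24 and 204 per Mb (140 to 288). The intervals of all lists treat sites as independent, but sites cluster within genes, so they do not measure the spread between genes. Of the 18 sites in the first of these lists, psq held 6, trx 4 and Trl 3. Of the 32 sites in the second, aop and pnt held 5 each and mam 4.

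In the chromatin list Trl held 3 sites, of which the strongest is described above. The histone methyltransferase gene trx held 4, the strongest with 1265 in replicate 1 and 1261 in replicate 2, at 3027 bp from the start. The Polycomb gene ph-p held 2, the stronger with 545.3 in replicate 1 and 473.4 in replicate 2. Its neighbour ph-d is a near-identical copy, and how reads that match both were placed is not given, so the ph-p values are uncertain. In the signalling list aos, which encodes the secreted EGF receptor inhibitor Argos, had a site with 993.4 in replicate 1 and 1020 in replicate 2. The strongest site of edl, an antagonist of Ets factors in that pathway, had 768.8 in replicate 1 and 811.9 in replicate 2. The Notch coactivator gene mam held 4 sites, the strongest with 837.5 in replicate 1 and 755.1 in replicate 2. The start nearest to that strongest mam site was that of another gene, CG18371.

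Synaptic and channel genes had a low rate, with 5 hosting genes of 43 and 28.9 sites per Mb (13.2 to 54.8), below all genes without overlap of the intervals. The share of them that hosted a site, 11.6%, was near the 10.7% of all genes, which have less eligible sequence. The median was 5.04 kb in this list and 0.452 kb over all genes. Of all genes with over 4000 and up to 8000 bp of it, 30.5% hosted a site. The strongest site among them was in the scaffold gene dlg1, with 403.0 in replicate 1 and 196.9 in replicate 2, and single sites were in the ELAV-family gene fne (145.1 and 156.7) and the potassium channel gene Shaw (130.3 and 112.2). Motor neuron identity factors had 1 hosting gene of 10 and 12.4 per Mb (0.314 to 69.1). This interval also lay below that of all genes (72.4 to 79.8), but the rate rests on 1 site. The gene was zfh1, a zinc-finger homeodomain factor, with 518.7 in replicate 1 and 573.2 in replicate 2. Oli itself has only 0.06 kb of eligible sequence and hosted none.

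The remaining lists had intervals that overlapped that of all genes. They were bHLH factors and their partners (10 of 30, 102 per Mb), ecdysone regulators (6 of 14, 81.4), neuroblast factors (4 of 16, 78.2), axon guidance and adhesion genes (11 of 42, 57.3), Hox genes and cofactors (3 of 12, 44.4) and sarcomere proteins (4 of 25, 40.98). Among bHLH genes the strongest site was in gce, a juvenile hormone receptor, with 1438 in replicate 1 and 958.2 in replicate 2, followed by crp (396.6 and 519.1) and SREBP, the regulator of lipid genes (613.8 and 311.7). In the neuroblast list brat, a translational repressor passed to the differentiating daughter cell, held 4 sites, the strongest with 752.0 in replicate 1 and 832.9 in replicate 2. The epidermal factor grh had 530.0 and 502.7 at its stronger site, and pros had 115.02 and 112.6.

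Of the guidance genes, the netrin receptor gene fra had 544.8 in replicate 1 and 612.6 in replicate 2, and sli, which encodes the Slit ligand, had 344.9 and 364.8. The start nearest to this fra site was that of another gene, CG33752. Of the Hox genes, Abd-B had 556.0 and 264.8, Antp had 256.7 and 292.7, and lab had 174.0 and 68.9. The nuclear receptor gene ftz-f1 held 5 sites, the strongest with 544.1 in replicate 1 and 382.4 in replicate 2. Hr4 (435.0 and 265.8) and Hr3 (306.5 and 235.9) came after it. Of sarcomere genes, tmod, which encodes a cap of the thin filament, had 498.1 and 479.0, followed by Zasp66 (141.1 and 161.9) and Prm (108.0 and 96.1). Pairs of values without a label are the signals of replicate 1 and replicate 2.

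**Figure D5:**
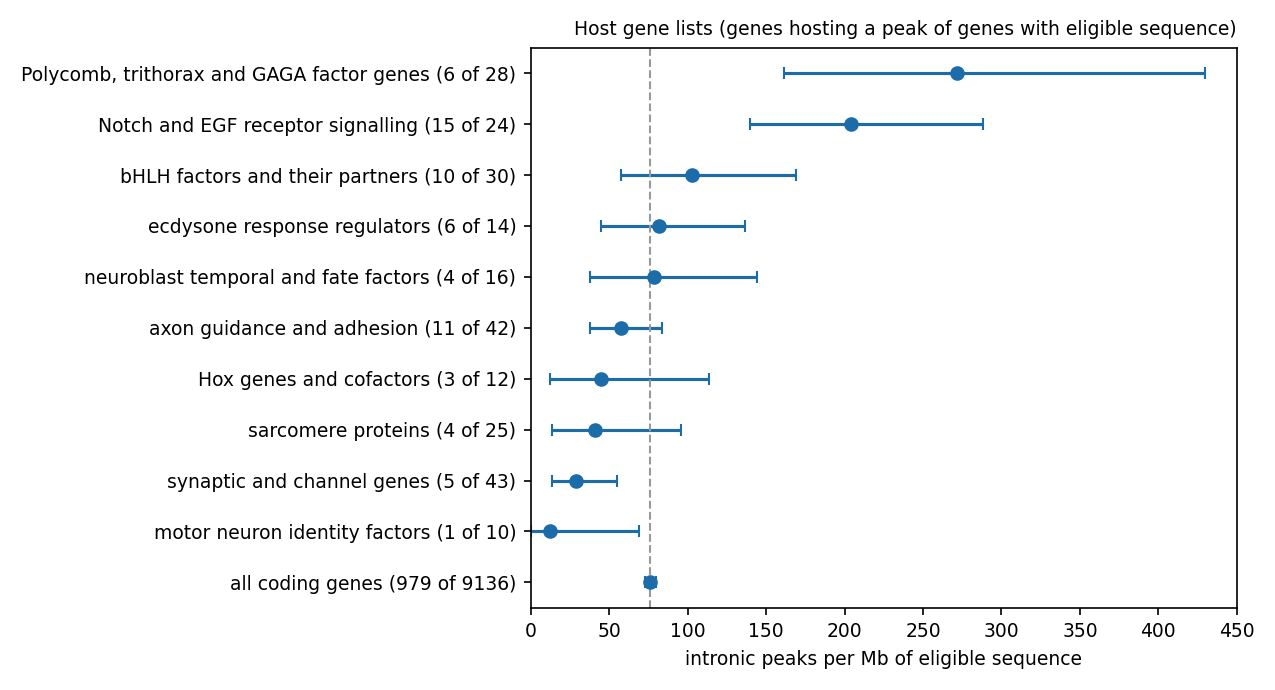
Intronic sites near a start per Mb of eligible sequence (x axis) in 10 gene lists and all coding genes, with exact Poisson 95% intervals. Polycomb, trithorax and GAGA factor genes (272 per Mb) and Notch and EGF receptor signalling (204) stand right of the dashed line for all genes (76.0). Synaptic and channel genes (28.9) and motor neuron identity factors (12.4, from 1 site) stand left of it with their whole intervals.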

How the data were processed

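ChIP-seq peak lists from 2 replicates of 1 group were analysed. The authors deposited 4 lists on dm6: 1 per replicate, 1 pooled and the IDR list. The deposited signal of each peak is the authors' own value, with no scaling stated, and served only to describe, rank and split peaks within a list. The aligner and caller: not given in the sources used here.

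Summits were placed on Ensembl release 115 (BDGP6 annotation 54), and sequences were read from RefSeq's release 6 assembly. Coordinates count from 1. Eligible sequence was marked base by base by the rule for summits. Rates were compared by the exact conditional test of 2 Poisson rates, shares by the Fisher exact test, summit and flank by the exact sign and McNemar tests, all two-sided, with Benjamini-Hochberg adjustment where several were made and a threshold of 0.05. Motif windows covered 50 bp to each side of the summit, and the flank lay 500 bp to the right. The 10 lists held 268 of 270 symbols in the annotation, 4 under a newer name. Calculations used Python 3.11.15, numpy 2.4.6, pandas 2.3.3 and scipy 1.17.1, figures matplotlib 3.10.9. The Fisher, McNemar and rate tests were run on simulated independent counts with known answers, and the sign test was not.

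The members and lists were chosen with earlier results of these data known. Named are the host genes of the 12 strongest members found in both replicates, the 8 genes with most members and up to 3 genes per list by signal; 1 of these is not reported here. For 3 member sequences a motif was required. The alternatives were each replicate alone, stricter and looser lists, other distances, starts, windows and flanks, and a GC band. Leaving out repeats or bases near exons was added after seeing the data. Reads, controls and signal tracks were not analysed here.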

Additional observations from a re-analysis of the deposited data

How the results depend on the processing

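The excess over deep introns (ratios 1.79 to 2.70), over intergenic sequence (1.37 to 1.86), in first introns (1.71 to 2.56) and in the nearest distance bin (1.47 to 2.16) kept its direction and passed under every alternative run, as did the GC difference (−12.8 to −8.66 points). The 2 added alternatives, without repeats and without bases near exons, are among these for the rates. No paired analysis was possible because there is 1 group. The number of sites was 865 in the stronger 50% of the list, 3234 among the 12992 strongest pooled peaks, and 1639 and 1697 with the lists of replicate 2 and replicate 1. The upstream over downstream ratio passed the exact test without replicate 1 or replicate 2 (1.11 to 1.14) and in the 12992 peaks (1.10, p = 0.0125). In the stronger 50%, the difference in strength from intergenic peaks was 3.96 points. Overlap with both replicates was 95.9% where at least 50% of the length was required.

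The summit over flank ratio of CATATG ran from 0.853 (without replicate 2) to 1.05 without a replicate and was 0.842 within 25 bp. CAGTG ran from 0.930 to 1.23 without a replicate, and by the exact McNemar test was called higher without replicate 2 (adjusted p = 0.0117), in the 12992 peaks (1.16, adjusted p = 0.0125) and within 100 bp (1.53, adjusted p = 1.92e-20). It was above 1 but not called at 1000 to 5000 bp (1.05), against the left flank (1.04) and against the flank at 1000 bp (1.02). CAACTG lost its call in 6 alternatives, at ratios of 0.704 to 0.813. CACCTG lost it in the stronger 50% (0.778), at 1000 to 5000 bp (0.541) and within 25 bp (0.474). CACATG lost it in the 12992 peaks (0.851) and CAGATG against the left flank (0.627). Against deep introns, 0 to 1 motifs were called lower without a replicate (CAGATG, without replicate 1). Against intergenic peaks, CAGATG was the 1 motif lower in the 12992 peaks. Against peaks at starts, the motifs called higher were 1 to 1 without a replicate (the GATA site without replicate 1, CAGTG without replicate 2), 1 in the 12992 peaks and 3 within 100 bp. Those called lower were 0 in the stronger 50%, 0 at 25 to 35% GC and 3 within 100 bp. The ratio of TATCGATA was 0 where it lost its call, with fewer peaks tested (adjusted p = 0.134 in the stronger 50% and 0.525 in the GC band, Fisher exact test). The cause of these changes was not tested. With no read counts, depth limits could not be set, and peaks of 2 libraries say nothing of spread between more embryo collections.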
